A study of Mus musculus with 6 samples.

Results

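The 8 genes described here encode the Toll-like receptors (TLRs) that sense nucleic acids inside endosomes, together with the proteins these receptors need for folding, transport and signalling. They are Tlr3, Tlr7, Tlr8, Tlr9, Tlr13, Unc93b1, Cnpy3 and Ticam1, chosen by gene symbol for their known role, and all 8 were among the 15168 genes with deposited counts. RNA was sequenced in bulk from macrophages sorted from full-thickness wounds in the back skin of female C57BL/6J wild-type mice, 3 days after wounding. Samples A, B and C of young mice (12 weeks) were compared with samples A, B and C of aged mice (24 months). Each mouse had 2 wounds of 10 mm, with buprenorphine given against pain. Cells were sorted as CD45+ CD11b+ CD64+ F4/80+ cells, and Ly6G was not used to keep neutrophils out. Mice were housed at either of a pair of animal facilities, and the labels give neither the facility of a sample nor whether it came from 1 mouse, so p-values measure the spread between these samples, which may in part be technical.

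Endosomal TLRs recognise RNA or DNA of microbes and of dying cells after it has been taken up. Double-stranded RNA binds TLR3, single-stranded RNA and its breakdown products bind TLR7 and TLR8, unmethylated CpG DNA binds TLR9, and bacterial ribosomal RNA binds TLR13. The receptors fold in the endoplasmic reticulum with the help of chaperones, are carried to endosomes by UNC93B1 and are cleaved there by proteases, and they signal through the adaptor MyD88, or in the case of TLR3 through TRIF, the product of Ticam1. Wound macrophages take up dead cells and debris, which are a source of such nucleic acids.

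The total of expected counts (estimated reads per gene, not always whole numbers) was 16263373, 15642483 and 15282178 in young A, B and C, and 15270103, 15998054 and 17927483 in aged A, B and C. Levels are given as CPM, the counts of a gene per 1000000 counts of the library after TMM scaling of its size, on which 1 count was worth 0.0553 to 0.0701 CPM. Aged samples were compared with young samples by edgeR's quasi-likelihood test, and p-values were adjusted over 11878 tested genes by the method of Benjamini and Hochberg. A gene is said to have risen or fallen when its adjusted p was under 0.05. By this rule 9.73% of all tested genes (1156) rose in aged macrophages and 7.97% (947) fell. All 8 endosomal TLR genes had enough counts to be tested. Of these, 1 rose (Ticam1) and 0 fell in the edgeR test. At an unadjusted p under 0.05 edgeR gave 1 higher and 1 lower of the 8, beside 2144 higher and 1957 lower of all 11878 tested genes. After adjustment DESeq2 called 1 higher and 0 lower, and limma-voom called 1 higher and 1 lower. The counts over all genes by limma-voom are given in the closing section, and those by DESeq2 are not given here. The difference in Ticam1 also passed the further threshold of a 2-fold change that the study used, which 4.59% of tested genes passed upwards and 4.20% downwards. In 4 of the 8 genes all samples of one age lay above all samples of the other, as in 38.2% of all tested genes. With 8 genes these edgeR counts are near the shares of all genes. The median log2 fold change of the members was -0.13, beside -0.02 over all tested genes.

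**Figure D1:**
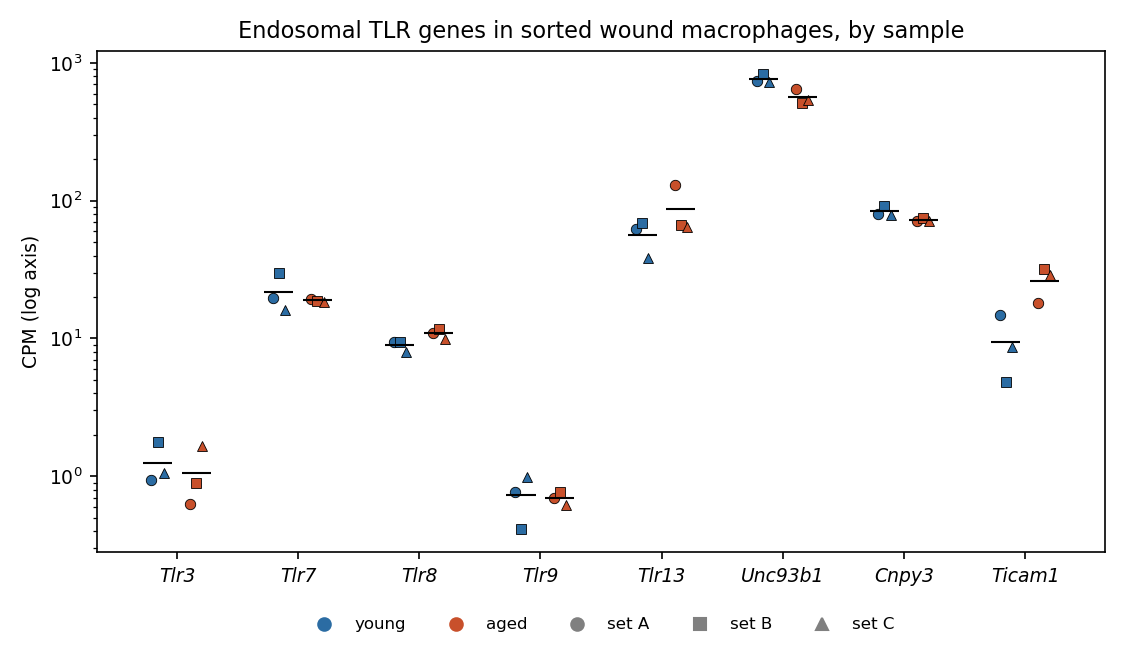
Level of each of the 8 genes in every sample, in CPM on a log axis, with young samples in blue and aged samples in orange, a symbol for each set letter, and a line at the mean of 3 samples. Ticam1, Tlr8, Unc93b1 and Cnpy3 have aged samples that do not overlap with young samples, and the scarcest genes, Tlr3 and Tlr9, lie below 2 CPM.

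Tlr13 had the highest level per kb of transcript of the 5 receptors. It lies on chromosome X (106143204 to 106160493 of mm10, gene ENSMUSG00000033777) and was at 62.8, 69.1 and 38.4 CPM in young A, B and C and at 130.4, 66.4 and 64.2 CPM in aged A, B and C. Aged A stood above all other samples and young C below them, while the other 4 samples lay within a narrow band shared by both ages. Young samples averaged 56.8 ± 16.2 CPM (SD, n = 3) and aged samples 87.0 ± 37.6 CPM. The log2 fold change of 0.61 (95% confidence interval -0.05 to 1.28) had an adjusted p of 0.176 in the edgeR test. Without aged A it was 0.20 (edgeR adjusted p = 0.600), and without young C 0.40 (0.465), with a range of 0.20 to 0.80 over the 6 fits that left out 1 sample. Aged A was also the sample with the highest sums over markers of monocytes (1084 CPM), of plasmacytoid dendritic cells (66.6 CPM), of type 1 conventional dendritic cells (41.5 CPM) and of T and NK cells (3.15 CPM). Of the type 1 dendritic cell sum most was Xcr1. Wdfy4 was also highest in aged A (5.67 CPM), while Batf3, Itgae and Cadm1 were lower there than in any young sample. A gate on CD11b, CD64 and F4/80 is meant to leave type 1 dendritic cells out. The part of any of these cells in the value of Tlr13 was not tested.

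Tlr7 and Tlr8 are neighbours on chromosome X, 40599 bases apart (Tlr8 from 167242696 to 167264329, ENSMUSG00000040522, and Tlr7 from 167304929 to 167330558, ENSMUSG00000044583, both on the minus strand). Tlr7 was at 19.6, 30.0 and 16.1 CPM in young A, B and C and at 19.5, 18.8 and 18.4 CPM in aged A, B and C. The aged samples were almost equal and lay inside the range of the young samples, which was set by a high young B. Young samples averaged 21.9 ± 7.27 CPM and aged ones 18.9 ± 0.542 CPM, with a log2 fold change of -0.21 (95% confidence interval -0.73 to 0.30, edgeR adjusted p = 0.547) that became 0.09 without young B. Tlr8 was at 9.35, 9.50 and 7.99 CPM in young and at 11.0, 11.8 and 9.88 CPM in aged A, B and C. Each aged sample was above each young sample, by a small margin. The log2 fold change of Tlr8 was 0.28 (95% confidence interval -0.17 to 0.73, edgeR adjusted p = 0.355). A p that misses the threshold does not show that levels were equal in the ages, and the intervals bound the difference: for Tlr7 a fold of 0.604 to 1.23, and for Tlr8 a fold of 0.888 to 1.66.

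Tlr3 and Tlr9 were close to the limit of what could be measured. Tlr3 (chromosome 8, 45395665 to 45411080, ENSMUSG00000031639) had 17, 30 and 16 counts in young A, B and C and 9, 14 and 27 counts in aged A, B and C, or 0.940, 1.76 and 1.06 CPM against 0.630, 0.892 and 1.67 CPM. High and low samples occurred in both ages, with young B and aged C at the top. The log2 fold change was -0.23 with a 95% confidence interval of -1.34 to 0.89 (edgeR adjusted p = 0.781). It turned positive without young B (0.11), without aged A (0.03) and in limma-voom (0.05). Tlr9 (chromosome 9, 106222598 to 106226883, ENSMUSG00000045322) had 14, 7 and 15 counts in young and 10, 12 and 10 counts in aged A, B and C. That is 0.774, 0.411 and 0.991 CPM against 0.701, 0.764 and 0.618 CPM, so the aged samples lay between the extremes of the young samples. Its log2 fold change was -0.06 (95% confidence interval -1.20 to 1.09, edgeR adjusted p = 0.953), and its sign changed without young A (0.00), young C (0.22) or aged C (0.03). A 2-fold fall of either gene, and a 2-fold rise of Tlr9, lie inside these intervals. An antisense transcript, Gm45542, overlaps 698 bases of Tlr3 on the other strand. It had no row of its own in the counts, and the sources used here do not state whether strand was used in counting, so reads from the pair cannot be told apart.

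Unc93b1 and Cnpy3, the transport and chaperone genes, had the highest levels per kb of transcript of all members, and both had lower values in each aged sample than in each young sample. UNC93B1 is the membrane protein that escorts endosomal TLRs out of the endoplasmic reticulum. Its gene (chromosome 19, 3935186 to 3949340, ENSMUSG00000036908) was at 745, 838 and 726 CPM in young A, B and C and at 645, 509 and 536 CPM in aged A, B and C. Young and aged samples did not overlap, with aged A nearest to the young samples. Young samples averaged 769.6 ± 59.8 CPM and aged ones 563 ± 71.8 CPM, a log2 fold change of -0.45 (95% confidence interval -0.83 to -0.07). With an adjusted p of 0.0907 in the edgeR test it did not pass, whereas limma-voom with sample quality weights gave an adjusted p of 0.0311, and over 12 alternatives the adjusted p ran from 0.0311 to 0.264. CNPY3 is a co-chaperone that folds TLRs together with GP96, and it serves receptors of the cell surface as well. Cnpy3 (chromosome 17, 46735705 to 46752214, ENSMUSG00000023973) was at 80.5, 91.1 and 79.1 CPM in young and at 70.8, 75.1 and 71.2 CPM in aged A, B and C. The aged samples lay below all young samples, and the gap between the nearest samples was small. The log2 fold change was -0.21 (95% confidence interval -0.54 to 0.12, edgeR adjusted p = 0.347). The whole of Cnpy3 (16510 bases) is overlapped on the other strand by the non-coding gene Gm26904, which had no row in the counts, so the same limit on strand applies.

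Ticam1 was the member that rose. It encodes TRIF, the adaptor through which TLR3, and TLR4 after its uptake into endosomes, lead to interferon-beta and to NF-kB. The gene lies on chromosome 17 (56269319 to 56276786, minus strand, ENSMUSG00000047123) and was at 14.9, 4.87 and 8.72 CPM in young A, B and C and at 18.1, 31.8 and 28.9 CPM in aged A, B and C. All aged samples were above all young samples. Young A and aged A were close to each other, and the widest gap was between young B and aged B. The mean went from 9.49 ± 5.05 CPM (SD, n = 3) to 26.3 ± 7.25 CPM, a ratio of means of 2.77, and the log2 fold change was 1.47 (standard error 0.36, 95% confidence interval 0.66 to 2.27, edgeR adjusted p = 0.0243). DESeq2 and limma-voom gave adjusted p-values of 0.000746 and 0.00261. The call was lost without young B (log2 fold change 1.16, adjusted p = 0.0623), young C (1.41, 0.106) or aged C (1.40, 0.0781) and was kept without each of the other samples, where the log2 fold change was 1.32 to 1.96. Over 12 alternatives the adjusted p ran from 0.000746 to 0.106. Bulk counts cannot tell fewer cells of a type from less RNA per cell, for Ticam1 or for any other gene here.

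**Figure D2:**
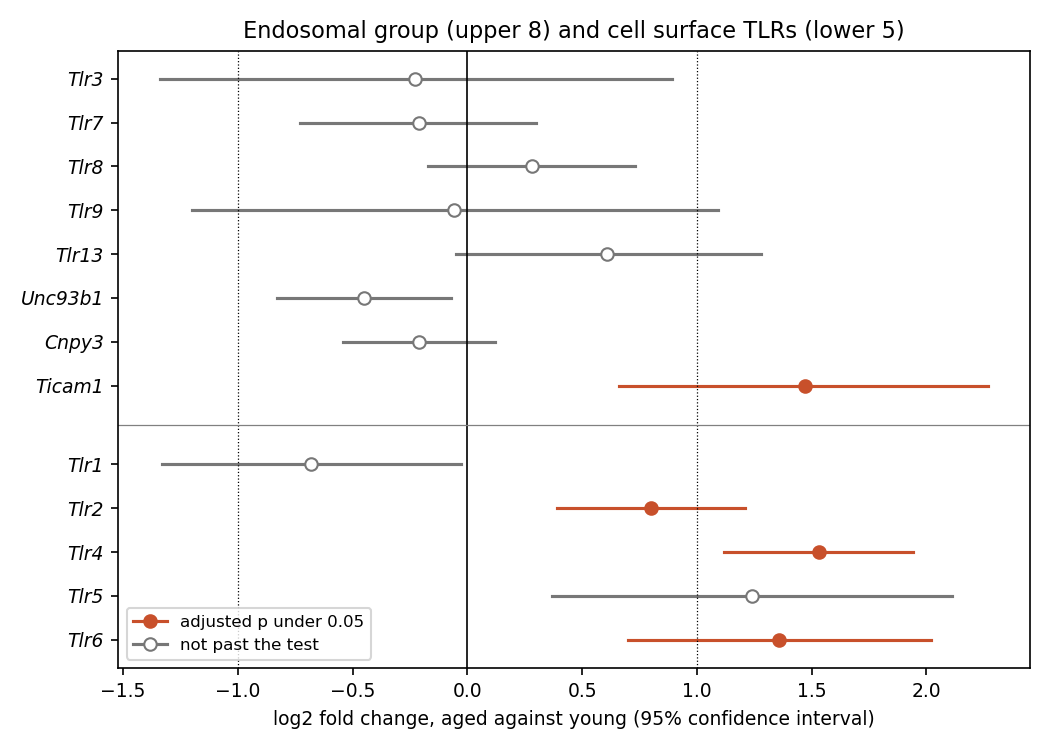
Log2 fold change of aged against young macrophages with its 95% confidence interval for the 8 genes and, below the line, for 5 TLRs of the cell surface, filled where the adjusted p was under 0.05. Dotted lines mark a 2-fold change. Ticam1 (1.47), Tlr4 (1.53), Tlr6 (1.36) and Tlr2 (0.80) passed, and the 5 endosomal receptors have intervals that include 0.

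The promoter of Ticam1 is shown as that of the member that rose, beside those of Tlr3, whose signal TRIF carries, and Tlr9, and the latter pair are the members whose windows held a match. RefSeq promoter entries of 300 bases (build GRCm38.p6) were matched for 6 of the 8 genes, Tlr3, Tlr8, Tlr9, Tlr13, Ticam1 and Cnpy3, and not for Tlr7 and Unc93b1. On both strands, 4 motifs were searched for: an interferon response element (GAAA, any 2 bases, GAAA), an AP-1 motif (TGANTCA), an NF-kB motif (GGGA, any 2 bases, TTCC) and a PU.1 motif (GAGGAAGT). These were held by 3.44%, 7.81%, 1.47% and 3.20% of 32851 promoters of the same length. Capitals mark the matches. The windows are chr17:56276718-56277017 (minus strand) for Ticam1, chr8:45410331-45410630 (minus strand) for Tlr3 and chr9:106222348-106222647 (plus strand) for Tlr9.
Ticam1: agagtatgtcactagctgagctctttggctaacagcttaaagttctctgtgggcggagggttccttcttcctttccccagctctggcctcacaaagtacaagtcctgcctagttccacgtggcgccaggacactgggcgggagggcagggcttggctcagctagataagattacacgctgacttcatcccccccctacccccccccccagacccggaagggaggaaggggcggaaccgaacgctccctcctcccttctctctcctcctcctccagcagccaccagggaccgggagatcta
Tlr3: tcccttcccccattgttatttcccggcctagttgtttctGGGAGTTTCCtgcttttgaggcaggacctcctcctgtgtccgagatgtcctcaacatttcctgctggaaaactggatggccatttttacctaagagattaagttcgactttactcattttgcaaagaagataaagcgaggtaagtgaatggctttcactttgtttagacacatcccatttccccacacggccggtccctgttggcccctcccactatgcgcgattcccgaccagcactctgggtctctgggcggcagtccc
Tlr9: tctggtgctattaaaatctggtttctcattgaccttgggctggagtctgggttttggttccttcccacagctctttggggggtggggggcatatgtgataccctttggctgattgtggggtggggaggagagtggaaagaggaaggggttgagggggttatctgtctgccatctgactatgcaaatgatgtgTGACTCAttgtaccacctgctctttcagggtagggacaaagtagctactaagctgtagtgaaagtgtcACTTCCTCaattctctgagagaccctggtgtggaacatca
The Tlr3 window held 1 match to the NF-kB motif, at bases 40 to 49 counted from its 5′ end. The Tlr9 window held an AP-1 match at bases 193 to 199 and, on the other strand, a PU.1 match at bases 261 to 268. In the windows of Ticam1, Tlr8, Tlr13 and Cnpy3 none of the 4 motifs was found, which says only that these letters are not in these windows.

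Levels of different genes were compared per kb of the longest protein-coding transcript. In aged samples the order of mean levels was Unc93b1 (249 ± 31.7 CPM per kb), Cnpy3 (37.9 ± 1.24), Tlr13 (21.4 ± 9.26), Ticam1 (8.78 ± 2.42), Tlr7 (4.85 ± 0.139), Tlr8 (3.17 ± 0.278), Tlr3 (0.241 ± 0.122) and Tlr9 (0.200 ± 0.0211). In young samples Ticam1 stood 1 place lower, behind Tlr7: Unc93b1 was at 340 ± 26.4 CPM per kb, Cnpy3 at 43.8 ± 3.44, Tlr13 at 14.0 ± 4.0, Tlr7 at 5.62 ± 1.87, Ticam1 at 3.17 ± 1.69, Tlr8 at 2.61 ± 0.242, Tlr3 at 0.284 ± 0.101 and Tlr9 at 0.209 ± 0.0843. Neighbours that did not differ beyond their spread were Tlr3 and Tlr9 in both ages, and in young samples also Ticam1 with Tlr7 and with Tlr8. Ticam1 was below Tlr7 in each of the 3 young samples and above it in each of the 3 aged samples. With the median length of a gene's transcripts instead of the longest the order was unchanged, and young Tlr3 (0.518 ± 0.183 CPM per kb) then exceeded young Tlr9 beyond the spread.

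**Figure D3:**
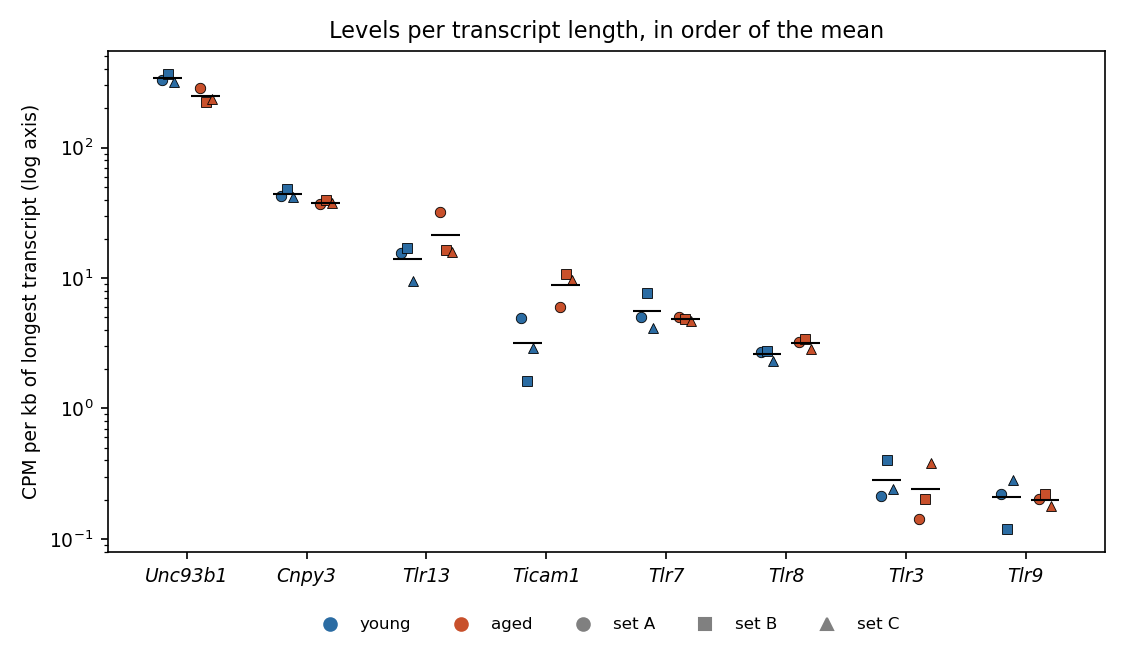
CPM per kb of the longest transcript on a log axis for the 8 genes, ordered by the mean of all 6 samples, with young samples in blue, aged samples in orange and a line at each mean. Unc93b1 lies at 225 to 370 CPM per kb in every sample and Tlr3 and Tlr9 below 0.4.

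Among the 5 receptors, Tlr13 made up 65.4%, 60.8% and 57.5% of the summed level per kb in young A, B and C and 79.0%, 65.3% and 66.0% in aged A, B and C. Tlr7 made up 21.2%, 27.5% and 25.1% in young and 12.3%, 19.3% and 19.7% in aged samples. The share of Tlr13 in young A lay between those in aged B and aged C, while the shares of Tlr7 did not overlap between the ages. The share of Tlr7 depends also on the level of Tlr13, which made up most of the sum. In CPM the ages did overlap for Tlr7. Tlr8 contributed 7.88% to 14.2% in every sample, and Tlr3 and Tlr9 each contributed 0.352% to 1.73%. These shares are descriptions, and their difference between the ages was not tested. Across the members, young B was the highest young sample for 6 of the 8 genes (Tlr3, Tlr7, Tlr8, Tlr13, Unc93b1 and Cnpy3) and the lowest for Tlr9 and Ticam1. Young C was the lowest young sample for 5 of the 8.

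For each member, the 2 genes of nearest profile were found among those with a mean of at least 10 CPM (6587 genes, or 6588 for the members below that level). Likeness was the root mean square difference of log2 CPM over the 6 samples, each gene centred on its own mean. Nearest to Ticam1 were Gfpt1 (0.20 log2 units) and B4galt5 (0.21), and nearest to Unc93b1 were Bclaf1 (0.048) and Nrm (0.06). Tlr8 was nearest to Actr1a (0.021) and Atg4d (0.049), Tlr7 to Hhex (0.065) and mt-Cytb (0.084), and Cnpy3 to Blmh (0.038) and Ccdc22 (0.042). For Tlr13 they were H1f0 (0.12) and Smg9 (0.14), for Tlr3 Pparg (0.20) and Ogt (0.22), and for Tlr9 Trp53rka (0.10) and Ppa1 (0.11). The nearest gene was farthest away for Ticam1 and Tlr3. Gfpt1 rose from 18.8 to 40.8 CPM (log2 fold change 1.12, edgeR adjusted p = 0.0349), and B4galt5 had a log2 fold change of 1.13 with an adjusted p of 0.0507.

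Cell surface TLRs, which sense lipids and proteins of microbes, were listed with their co-receptors for comparison. Of 11 genes tested, 5 rose and 2 fell in the edgeR test, and their median log2 fold change was 0.80. Tlr4, the receptor for lipopolysaccharide, was at 95.9, 69.1 and 78.1 CPM in young A, B and C and at 198, 246 and 258 CPM in aged A, B and C. The lowest aged sample, aged A, was about double the highest young sample, young A. The log2 fold change of Tlr4 was 1.53 ± 0.19 SE (adjusted p = 0.00202 by edgeR). Tlr6, a partner of TLR2, rose from 9.70 ± 1.60 to 25.0 ± 11.1 CPM (log2 fold change 1.36), and the lipopolysaccharide co-receptor Cd14 from 7888 ± 478 to 16855 ± 3050 CPM (1.10). Tlr2 rose by a log2 fold change of 0.80 and the adaptor gene Tirap by 0.88. Cd180 (-1.23) and Ly86 (-1.06), which encode the RP105 receptor and its partner MD-1, both fell. Tlr1 (-0.68, edgeR adjusted p = 0.127) and Tlr5 (1.24, adjusted p = 0.0527) did not pass, with 95% confidence intervals of -1.33 to -0.03 and 0.37 to 2.11. Tlr5 passed by DESeq2 (0.0115), by limma-voom (0.00873) and with at least 10 counts in every sample (0.0483), with a range of 0.00873 to 0.191 over 12 alternatives, and by edgeR without young A (0.0124) or aged A (0.0307). Tlr1 passed by edgeR without young A (0.0285) and with the set letter as a replicate block (0.0472). Of the 5 surface receptors 3 rose, beside 0 of 5 endosomal receptors in the edgeR test (0 at an unadjusted p under 0.05, and 0 after adjustment by DESeq2 or limma-voom). Of all tested genes 9.73% rose and 7.97% fell in the edgeR test, so 0 of 5 is near the share of all genes. Whether the families differ in their response was not tested. When 1 sample was left out, Tlr4 kept its call in all 6 fits. Tlr2 lost it without young C (adjusted p = 0.0831) and aged C (0.0758), Tlr6 without young B (0.0645) and young C (0.0896), Cd14 without young C (0.0538) and aged C (0.0549), and Cd180 and Ly86 without young C (0.0580 and 0.0544). Tirap passed without young A alone and was at 0.0501 to 0.109 without any other sample. Per kb, Tlr13 (21.4 CPM per kb in aged samples) lay between Tlr4 (57.5) and Tlr1 (8.25), and Tlr2 was at 269.9 CPM per kb.

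**Figure D4:**
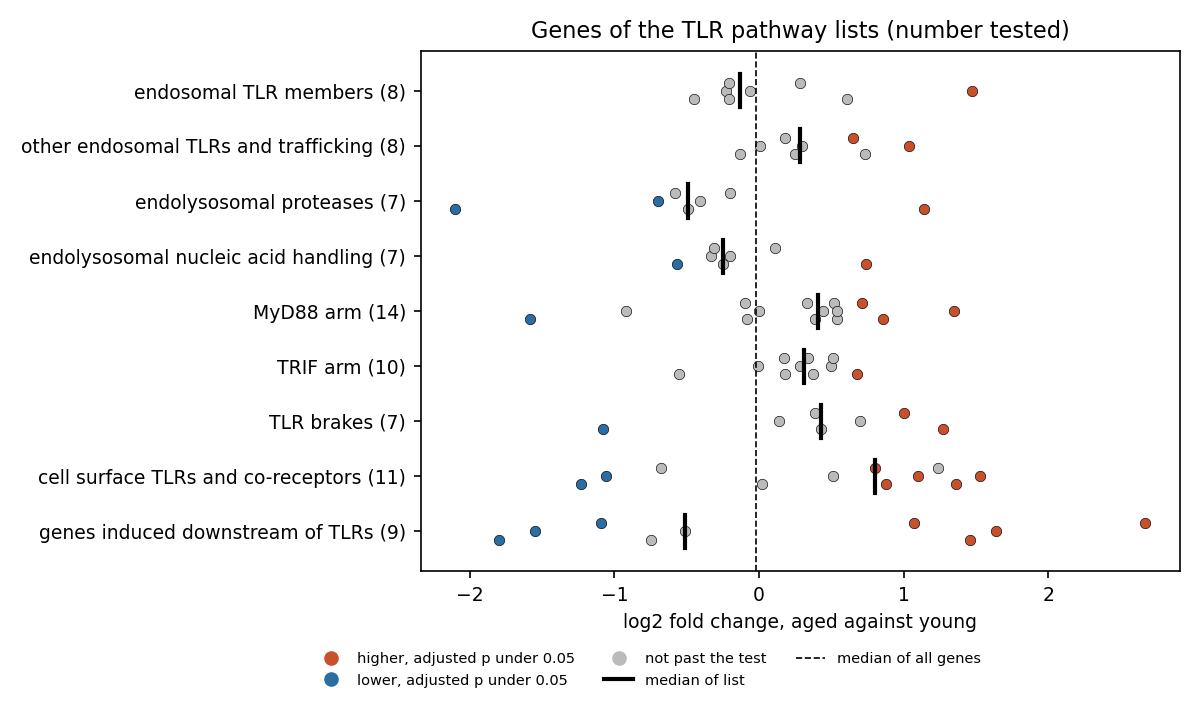
Log2 fold change of aged against young macrophages for each tested gene of 9 lists of the TLR pathway, coloured where the adjusted p was under 0.05, with a bar at the median of a list and a dashed line at the median of all tested genes (-0.02). Surface TLRs and co-receptors have the highest median (0.80), and the genes induced downstream hold calls in both directions.

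A further list held other endosomal TLRs, genes that fold, carry or localise these receptors, and transporters of endolysosomes. Log2 fold changes were positive in 7 of 8 tested of 12 listed genes, with a median of 0.28 and a smallest positive value of 0.01. In the edgeR test 2 rose and 0 fell, with 3 higher and 0 lower at an unadjusted p under 0.05, while DESeq2 and limma-voom each gave 3 higher and 0 lower after adjustment. Slc15a3, a histidine and peptide transporter of endolysosomes, was at 88.2, 58.1 and 63.0 CPM in young and 150.1, 134.6 and 145.9 CPM in aged A, B and C. The aged samples lay close together above all young samples, with a log2 fold change of 1.04 ± 0.19 SE (adjusted p = 0.00884 by edgeR). Lrrc59, which takes part in the exit of endosomal TLRs from the endoplasmic reticulum, rose by a log2 fold change of 0.65 (adjusted p = 0.0307). The lowest value was that of Cnpy4 (-0.13, edgeR adjusted p = 0.630). Without young C the adjusted p of Slc15a3 was 0.0627, and Lrrc59 passed without young A but was at 0.0516 to 0.121 without any other sample. Tlr11, which like Tlr12 senses profilin, had 16 counts in young B and 0 to 4 in the other samples and was not tested. Tlr12, Tasl and Lamp5 had no row under these symbols.

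Proteases that cut TLR ectodomains in endolysosomes, or act beside those that do, showed 1 rise and 2 falls among 7 tested genes, with a median log2 fold change of -0.49. Ctsk, which encodes cathepsin K, was at 137, 62.5 and 154 CPM in young and 26.2, 31.5 and 25.0 CPM in aged A, B and C. Young B was lowest of the young samples and still well above all aged ones. Its log2 fold change was -2.10 ± 0.30 SE (adjusted p = 0.00379 by edgeR), and it passed in all 6 fits that left out 1 sample. Ctss, which encodes cathepsin S, fell (log2 fold change -0.70, adjusted p = 0.0437), and Furin, which encodes a proprotein convertase of the Golgi and endosomes, rose (1.14, adjusted p = 0.0331). Ctss passed without young A alone (0.0667 to 0.162 without any other sample), and Furin lost its call without young B, young C, aged A or aged C (0.0633 to 0.138).

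Endolysosomal enzymes and transporters that digest or export nucleic acids gave 1 rise and 1 fall among 7 tested of 9 listed genes, with a median log2 fold change of -0.25. Sidt2, which encodes a lysosomal RNA transporter, rose from 33.5 ± 4.24 to 56.0 ± 4.87 CPM (log2 fold change 0.74, edgeR adjusted p = 0.0176). Dnase2a, which encodes the lysosomal DNase II, fell from 68.6 ± 7.46 to 46.2 ± 5.23 CPM (log2 fold change -0.57, edgeR adjusted p = 0.0391). In both genes the ages did not overlap. Sidt2 lost its call without young B, young C or aged C (0.0584 to 0.0929), and Dnase2a lost it without any 1 of the 6 samples (0.0508 to 0.160) and where low counts were not filtered (0.0511).

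The MyD88 arm, through which TLR7, TLR8, TLR9 and TLR13 signal, had 3 rises and 1 fall among 14 genes in the edgeR test (6 higher and 1 lower at an unadjusted p under 0.05), with a median log2 fold change of 0.41. DESeq2 gave 4 higher and limma-voom 5, and leaving out 1 sample gave 1 (without young B, young C or aged C) to 4 (without young A). Irak2, a kinase of the Myddosome, was at 77.9, 53.9 and 69.6 CPM in young and 175, 158 and 181 CPM in aged A, B and C, with no overlap (log2 fold change 1.35 ± 0.18 SE, adjusted p = 0.00283 by edgeR). Traf6 (0.86) and Irf5 (0.71) rose as well. Irf7, the transcription factor behind interferon-alpha downstream of TLR7 and TLR9 and itself an interferon-induced gene, fell from 335 ± 87.1 to 112 ± 56.6 CPM (log2 fold change -1.58 ± 0.33 SE, adjusted p = 0.0152 by edgeR). Irak2 passed in all 6 fits that left out 1 sample. Traf6 and Irf5 lost their calls without young B, young C or aged C (adjusted p 0.0526 to 0.0862) and Irf7 without young B (0.0549) or young C (0.0774).

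The TRIF arm downstream of Ticam1 had 1 rise and 0 falls among 10 tested genes in the edgeR test, with 3 higher and 0 lower at an unadjusted p under 0.05 and a median log2 fold change of 0.31. Peli1, a ubiquitin ligase of TRIF signalling, was at 55.4, 49.1 and 60.0 CPM in young and 93.4, 71.3 and 99.4 CPM in aged A, B and C. No young sample reached the aged ones (log2 fold change 0.68 ± 0.18 SE, adjusted p = 0.0277 by edgeR). Its call was lost without young B, young C, aged A or aged C (0.0622 to 0.111). The number of genes of the arm that passed was 0 when any 1 of these samples was left out and 4 without young A. The lowest value of the arm was that of Wdfy1 (-0.55, 95% confidence interval -1.14 to 0.05, edgeR adjusted p = 0.177), which encodes a protein that brings TRIF to TLR3. By limma-voom 3 genes of the arm were higher after adjustment and by DESeq2 1.

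Brakes of TLR signalling had 2 rises and 1 fall among 7 tested genes in the edgeR test, with a median log2 fold change of 0.43, while DESeq2 gave 3 higher and limma-voom 4. Irak3, which encodes the inhibitory kinase IRAK-M, rose from 35.9 ± 3.37 to 86.5 ± 13.3 CPM (log2 fold change 1.27, edgeR adjusted p = 0.00319) and passed in all 6 fits that left out 1 sample. Tollip, an adaptor that binds IRAK1, rose from a mean of 86.8 to 173 CPM (edgeR adjusted p = 0.0397), and Ptpn6, which encodes the phosphatase SHP-1, had 110, 271 and 214 CPM in young and 89.5, 93.6 and 98.2 CPM in aged A, B and C. Young A was close to the aged samples, and young B and young C were well above them. The log2 fold change of Ptpn6 was -1.08 (edgeR adjusted p = 0.0270). When 1 sample was left out, both genes passed without young A alone. Otherwise the adjusted p was 0.0503 to 0.158 for Tollip and 0.0547 to 0.107 for Ptpn6.

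Among genes induced by TLRs, 4 rose and 3 fell of 9 tested and 12 listed, with a median log2 fold change of -0.51. Il12a rose from 1, 9 and 8 counts in young to 40, 30 and 38 counts in aged A, B and C (log2 fold change 2.67, edgeR adjusted p = 0.0189), so its level stayed below 3 CPM. Il6 (1.64), Cxcl2 (1.46) and Tnf (1.07) were the other inflammatory genes that rose. The interferon-stimulated genes Ifit2, Ifit1 and Isg15 fell, with log2 fold changes of -1.80 for Ifit2, -1.55 for Ifit1 and -1.09 for Isg15. Isg15 was at 77.4, 76.2 and 100.9 CPM in young and 26.6, 25.7 and 67.6 CPM in aged A, B and C, so aged C was nearest to the young samples. Ifnb1, the direct interferon target of TRIF, had 10, 1 and 4 counts in young and 0, 3 and 4 counts in aged samples and was not tested. Cxcl2 kept its call in all 6 fits that left out 1 sample. Without young C the others, Isg15 apart, had adjusted p-values of 0.0546 (Ifit1), 0.0632 (Ifit2), 0.0762 (Il12a), 0.0864 (Il6) and 0.0872 (Tnf), and without aged C those of Il12a (0.0628) and Il6 (0.0758) also missed the threshold. Over the 6 fits the log2 fold change of Isg15 ran from -1.69 (without aged C) to -0.84 (without aged B). Isg15 (0.0497 with all samples) passed without aged C alone (0.00958), and was at 0.0527 to 0.178 without any other sample. It also missed the threshold with the size factors of DESeq2 (0.0513) and with no filter on low counts (0.0571). Of the genes named from these lists, Lrrc59, Ctss, Traf6, Irf5, Tollip, Tlr1, Tlr2, Tlr5, Tlr11, Tirap and Ifnb1 fell outside the naming rule and were chosen after their values were seen.

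Transcripts of all proteins of the sort were present in every sample. Ptprc, which encodes CD45, ran from 190 to 308 CPM, Fcgr1 (CD64) from 422 to 514, Itgam (CD11b) from 334 to 822 and Adgre1 (F4/80) from 172 to 357. Itgam rose (log2 fold change 0.99) and Adgre1 fell (-0.69, edgeR adjusted p = 0.0292), the latter not without young B, young C, aged A or aged C (0.0751 to 0.113). The macrophage list (7 of 7 in the table) summed to 3809, 4161 and 4205 CPM in young A, B and C and 4147, 3934 and 3820 CPM in aged A, B and C, with Cd68 the most abundant. Plasmacytoid dendritic cell markers (5 of 7 in the table) summed to 54.1 to 57.5 CPM in young and 61.1 to 66.6 CPM in aged samples, most of it Tcf4 (mean 56.8 CPM). In aged B Tcf4 was lower than in any young sample (51.8 CPM), and Ly6d, at 0 to 1 counts elsewhere, had 94 counts (5.99 CPM). Siglech had 0 to 22 counts and Pacsin1 and Klk1 had no row. Markers of type 1 conventional dendritic cells (5 of 6, Clec9a without a row) summed to 27.3, 11.0 and 10.0 CPM in young and 41.5, 11.5 and 18.2 CPM in aged A, B and C, led by Xcr1 (34.5 CPM in aged A). Ighm, which encodes the heavy chain of IgM in B cells, was at 61.3, 145 and 55.8 CPM in young and 28.7, 20.3 and 36.4 CPM in aged A, B and C. The ages did not overlap, and young B, the young sample with the highest Tlr7 and the lowest Ticam1, was far above the others. Ighm fell (log2 fold change -1.62, edgeR adjusted p = 0.0172) and passed in all 6 fits that left out 1 sample, with -1.03 without young B (0.0454). Of other genes of B cells, Cd79b was at 4.43 to 12.8 CPM in young and 1.85 to 3.46 CPM in aged samples. Cd79b fell (log2 fold change -1.58, edgeR adjusted p = 0.0308), but passed without young A alone when 1 sample was left out (0.0555 to 0.118 without any other), and not by limma-voom (0.0613). Ms4a1 (2 to 7) and Cd79a (0 to 9) had few counts in every sample.

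Neutrophil markers (9 of 10, Camp without a row) summed to 520, 931 and 786 CPM in young A, B and C and 1155, 668 and 1252 CPM in aged A, B and C, with S100a9 the most abundant. Of this list, 7 of 9 did not pass: Mmp8 (log2 fold change 0.50), S100a8 (0.48), Ngp (0.38), Csf3r (0.33), S100a9 (0.20), Ly6g (0.05) and Ltf (-0.31), while Cxcr2 (log2 fold change 1.13, edgeR adjusted p = 0.0340) and Retnlg (0.85, 0.0393) rose. When 1 sample was left out, Cxcr2 passed without young B or aged B alone (0.0632 to 0.143 without any other sample) and Retnlg without aged B alone (0.0781 to 0.153). Monocyte markers (5 of 5), led by Ccr2, summed to 541, 944 and 858 CPM in young and 1084, 567 and 899.7 CPM in aged samples. Of this list Ccr2 (log2 fold change -0.16), Ly6c2 (-0.13) and Plac8 (-0.02) did not pass, and Vcan rose, from 29.2 to 128 CPM (log2 fold change 2.13, edgeR adjusted p = 0.00136), and passed in all 6 fits that left out 1 sample. Vcan, Cxcr2, Retnlg and all other markers named here that were neither of the sort nor the most abundant of a list were chosen after their values were seen. Keratinocyte markers (5 of 5), led by Krt14, were below 2 CPM in sum in all samples but aged B, where they reached 112 CPM. Fibroblast markers (5 of 5), led by Col3a1, were also highest in aged B, at 112 CPM against 11.0 to 38.4 CPM elsewhere, and those of T and NK cells (4 of 5, Ncr1 without a row), led by Trac, stayed at 0.925 to 3.15 CPM. Aged B was also the highest sample for Ticam1, at 31.8 CPM, and without it the log2 fold change of Ticam1 was 1.32 with an edgeR adjusted p of 0.0494. The part of any of these cells in the values of the endosomal TLR genes was not tested.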

How the data were processed

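The deposited values were expected counts per gene, which the authors made from reads aligned with STAR 2.7.3a and quantified in Partek on Ensembl transcripts 102 of mm10. The sources do not state whether strand was used in counting. Values were rounded to whole counts. Low counts were filtered by filterByExpr, libraries were scaled by TMM, and ages were compared by the quasi-likelihood test of edgeR, with p-values adjusted by the method of Benjamini and Hochberg (R 4.3.3, edgeR 4.0.16). Alternatives were DESeq2 (1.42.0) and its size factors, limma-voom (limma 3.58.1) with sample quality weights, no filter, at least 10 counts in every sample, the set letter as a replicate block, a further 2-fold threshold, and leaving out each sample. Tables, promoters and figures were made with Python 3.11.15, pandas 2.3.3, scipy 1.17.1 and matplotlib 3.10.9, and the fits were tested on simulated data. Named were all members, the genes of highest and lowest fold change of each other list, list genes past adjusted p under 0.05 and 2-fold, the 2 nearest profiles of each member, sort markers and the most abundant gene of each marker list. Members and lists were chosen with earlier results of these data known. The authors' table of fold changes and p-values was not used.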

Additional observations from a re-analysis of the deposited data

How the results depend on the processing

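Over 12 alternatives Ticam1 kept a positive log2 fold change, with an adjusted p of 0.000746 to 0.106, under 0.05 in 9. Leaving out 1 sample gave 1.16 to 1.96, and the call was lost without young B (adjusted p = 0.0623), young C (0.106) or aged C (0.0781), so the count of members that rose was 0 to 1. limma-voom was the only alternative that added a fall, Unc93b1 (-0.45, adjusted p = 0.0311), 1 member lower. The sign of Tlr3 changed in limma-voom (0.05), without young B (0.11) and without aged A (0.03), with a range of -0.70 to 0.11 when 1 sample was left out. That of Tlr7 changed without young B (0.09, range -0.39 to 0.09), and that of Tlr9 without young A (0.00), young C (0.22) and aged C (0.03), with a range of -0.33 to 0.22. The cause was not tested.

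Over all genes, limma-voom gave 1933 higher and 1713 lower, and the 2-fold threshold 545 and 499. Leaving out 1 sample gave 151 to 1574 higher and 67 to 1128 lower, lowest without young C and highest without young A. Of 29 called genes of the pathway lists, 5 kept their call whichever sample was left out, and 27 in all other fits that were run, the further 2-fold threshold apart. Il12a could not be fitted with at least 10 counts in every sample. With the median transcript length Unc93b1 was at 480.0 CPM per kb, Cnpy3 at 63.2 and Tlr3 at 0.479.

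Deviations from the mean of an age, over all tested genes, correlated between samples of the same letter at 0.181 (A), -0.0206 (B) and 0.114 (C). Between samples of different letters the correlations ran from -0.215 to 0.138, so that of A was the highest of all. Within an age, counts of 2 samples differed by a chi-square per degree of freedom of 29.4 (young B and C) and 41.6 (aged B and C). For pairs that held an A sample it was 86.7 to 110. The letter, whose meaning the labels do not give, was not used as a pairing in the main fit. With it as a replicate block Ticam1 had a log2 fold change of 1.55 (edgeR adjusted p = 0.0358), and no call of a member differed. Tlr1 passed (-0.64, adjusted p = 0.0472), and Cxcr2 (0.0596), Retnlg (0.0556) and Cd79b (0.0544) did not.

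Tlr3 and Tlr9 could not be fitted where at least 10 counts were required in every sample, and at 7 to 30 counts their differences are known only within wide intervals.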
